A study of Homo sapiens with 12 samples.

Results

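Transcripts of 9 cell-surface genes were followed in PC9 cells before and during exposure to an EGFR inhibitor, and in cells labelled as knockout for the DNA repair enzyme TDP1. The 9 genes were CEACAM1, CEACAM5, CEACAM6, EPCAM, MSLN, FOLR1, PROM1, CD44 and CD24, which are used as tumour antigens or as markers of stem-like cancer cells. They were chosen by name, as the rows of the count table whose Ensembl identifier carries that symbol. Each symbol matched 1 identifier, giving 9 of 62754 rows. PC9, a human lung adenocarcinoma line, grows on signals from a mutant EGFR, whose kinase erlotinib blocks. Per the labels the cells came from a subclonal PC9 line, and the 3 cultures of a condition were split from a shared flask and then grown apart, so p-values measure the spread between such cultures. The 4 groups of 3 libraries were TDP1 WT cells without drug (untreated WT), TDP1 WT cells kept in 1 µM erlotinib for 7 days (DTC, drug-tolerant cells) or for 28 days (DTEC, drug-tolerant expanded cells), and TDP1 KO cells without drug from a single knockout line, KO2 (KO). KO therefore stands for 1 line, and no knockout cells were sampled in drug.

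The CEACAM genes encode adhesion proteins of the immunoglobulin superfamily that bind each other on neighbouring cells. CEACAM5 (the carcinoembryonic antigen) and CEACAM6 are held in the membrane by a glycosylphosphatidylinositol (GPI) anchor, whereas CEACAM1 spans the membrane and signals through its cytoplasmic tail. MSLN (mesothelin), FOLR1 (folate receptor alpha, which takes up folate) and CD24 (a small, heavily glycosylated sialomucin-like protein) are also GPI-anchored. EPCAM is an adhesion protein of epithelia, CD44 is the main receptor for hyaluronan, and PROM1 (CD133) is a membrane protein of cell protrusions that is widely used as a stem cell marker. In lung adenocarcinoma several of these proteins are targets of antibodies or antibody conjugates.

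The bases before the transcription start are shown for the 3 CEACAM genes, because 2 of them moved together and the third did not, and for CD24 and CD44, which moved in opposite directions. They are from RefSeq (GRCh38.p14), whose promoter table held 6 of the 9 genes. EPCAM, MSLN and FOLR1 were not in it, and PROM1, at 0 in most libraries, is not shown. Each runs 5′ to 3′ on the strand of the gene over the 250 bases before the start, and capitals mark matches to the motifs named after them.
CEACAM5, chr19:41708376-41708625, plus strand: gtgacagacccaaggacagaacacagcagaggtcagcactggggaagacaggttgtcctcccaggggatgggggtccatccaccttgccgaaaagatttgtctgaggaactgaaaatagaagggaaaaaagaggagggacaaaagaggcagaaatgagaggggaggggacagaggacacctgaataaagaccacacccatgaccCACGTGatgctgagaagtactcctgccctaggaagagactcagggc
CEACAM6, chr19:41755280-41755529, plus strand: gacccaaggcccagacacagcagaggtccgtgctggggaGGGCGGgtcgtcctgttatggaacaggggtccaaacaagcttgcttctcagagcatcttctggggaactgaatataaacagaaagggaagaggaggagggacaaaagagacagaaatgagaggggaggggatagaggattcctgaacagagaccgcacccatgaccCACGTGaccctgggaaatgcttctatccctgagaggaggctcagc
CEACAM1, chr19:42528482-42528731, minus strand: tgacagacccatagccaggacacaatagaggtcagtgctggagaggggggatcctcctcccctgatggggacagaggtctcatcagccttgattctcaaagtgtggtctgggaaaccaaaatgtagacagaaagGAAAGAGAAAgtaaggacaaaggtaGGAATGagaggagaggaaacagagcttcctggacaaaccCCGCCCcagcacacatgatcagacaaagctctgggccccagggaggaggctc
CD24, chr6:106975628-106975877, minus strand, the first of 3 listed starts: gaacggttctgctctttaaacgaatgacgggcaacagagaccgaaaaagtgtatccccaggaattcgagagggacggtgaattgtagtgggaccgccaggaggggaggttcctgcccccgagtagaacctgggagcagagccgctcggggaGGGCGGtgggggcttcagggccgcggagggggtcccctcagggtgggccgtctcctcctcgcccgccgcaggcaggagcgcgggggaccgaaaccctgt
CD44, chr11:35138921-35139170, plus strand: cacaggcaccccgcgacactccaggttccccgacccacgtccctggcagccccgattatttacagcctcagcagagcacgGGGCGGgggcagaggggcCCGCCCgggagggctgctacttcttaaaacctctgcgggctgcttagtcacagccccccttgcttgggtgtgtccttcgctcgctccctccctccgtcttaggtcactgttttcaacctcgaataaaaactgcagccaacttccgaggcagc

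Windows of 300 bases (250 before the start and 50 after it) were searched on both strands for an E-box (CACGTG), a GC box (GGGCGG), an interferon response core (GAAA, any 2 bases, GAAA), an AP-1 site (TGANTCA), a FOXO site (GTAAACA) and a TEAD site (GGAATG). CEACAM5 and CEACAM6 each held 1 E-box, beginning 46 and 45 bases before the start, and an E-box occurs in 7.26% of the 35116 promoter windows of the table. CEACAM6 also held a GC box 211 bases before its start, a match that 44.95% of windows have. CEACAM1 had no CACGTG in this window. It held an interferon response core 116 bases before the start (3.57% of windows), a TEAD site at 91 (14.03%) and a GC box at 52. CD44 held 2 GC boxes, at 170 and 152 bases, and CD24 held 1 at 99 bases before the start shown. The window of its listed start 2 held no match. That of start 3 held a GC box at 71 bases and a TEAD site at 130. A match describes letters and is not evidence of a bound factor. The CEACAM5 and CEACAM6 windows were identical at 78.8% of aligned positions (230 of 292), CEACAM6 and CEACAM1 at 74.8% (214 of 286), and CEACAM5 and CEACAM1 at 72.0% (206 of 286).

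The libraries held 25572691 to 38373679 estimated counts. TDP1 itself was at 10.1, 11.3 and 11.0 CPM (counts per 1000000 of the scaled library total) in KO against 28.1, 25.1 and 25.8 in untreated WT, so the KO libraries kept 41.0% of the untreated WT mean of TDP1 RNA. Mitochondrial genes took 4.43% to 5.41% of counts in DTC, against 1.82% to 2.78% in the other groups. The cells carried the epithelial keratins and EPCAM of their label. The 4 lung lineage markers summed to 1.21 to 2.36, 1.42 to 2.46, 12.3 to 17.5 and 5.51 to 7.54 CPM in the libraries of untreated WT, DTC, DTEC and KO, an order kept for the sums that follow. SFTPB, a surfactant protein, made up most of the DTEC and KO sums, with means of 1.51, 0.0699, 14.1 and 6.38 CPM, while the lineage factor NKX2-1 had a mean of at most 0.366. In DTC the sum held opposite moves. There edgeR called 2 of the 3 tested lineage markers higher than in untreated WT and 1 lower (adjusted p under 0.05). The shares over all tested genes were 34.0% and 33.3%. The 6 leukocyte markers summed to 447 to 483, 543 to 771, 222 to 295 and 388 to 404 CPM. LCP1, an actin-bundling protein, made up most of it (means of 436, 590, 214 and 368 CPM), with CD68 at 27.5 to 46.4, whereas PTPRC and CD3E, which define leukocytes and T cells, had means of at most 0.0896. The 5 endothelial markers summed to 58.5 to 61.4, 42.3 to 50.2, 122 to 142 and 75.8 to 77.2 CPM, nearly all of it PECAM1 and CDH5, with KDR and TEK at means of at most 0.584. The 6 fibroblast markers summed to 7.99 to 8.91, 55.0 to 57.8, 11.1 to 14.1 and 13.5 to 15.1 CPM, nearly all of it COL1A1, and the other 5 had means of at most 0.43. The part of these markers in the results was not tested.

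All of the 9 genes but PROM1, 8 in number, passed the filter on low counts and were tested with edgeR's quasi-likelihood F test, with Benjamini-Hochberg adjustment over 17115 genes. All adjusted p-values below are from that test unless another is named, and a gene is called at an adjusted p under 0.05. At 7 days FOLR1, MSLN, CD24 and CEACAM1 were higher than in untreated WT, while CEACAM5, CEACAM6, EPCAM and CD44 were lower. Of all tested genes 34.0% were called higher and 33.3% lower there. These 8 calls stand against 67.3% of all tested genes called in that comparison, so the number of calls says little about these genes, and the sizes carry the description. At 28 days all 8 were called again, 6 higher and 2 lower, against 52.3% of all genes (26.0% higher and 26.3% lower). CEACAM5 and CEACAM6 had changed sign. Between 28 and 7 days 7 of the 8 were called, 4 higher and 3 lower in DTEC, against 55.4% of all genes (28.8% and 26.6%). In KO 3 of the 8 were called, CEACAM1, FOLR1 and CD24, all higher, against 4.31% of all genes (2.76% higher and 1.55% lower). The calls that also reached 2-fold numbered 7, 4, 6 and 2 in these 4 comparisons, against 36.2%, 19.9%, 22.4% and 1.30% of all genes. The groups did not overlap for 8, 8, 7 and 7 of the genes in the same order, against 68.9%, 62.4%, 56.7% and 35.7% of all genes.

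**Figure D1:**
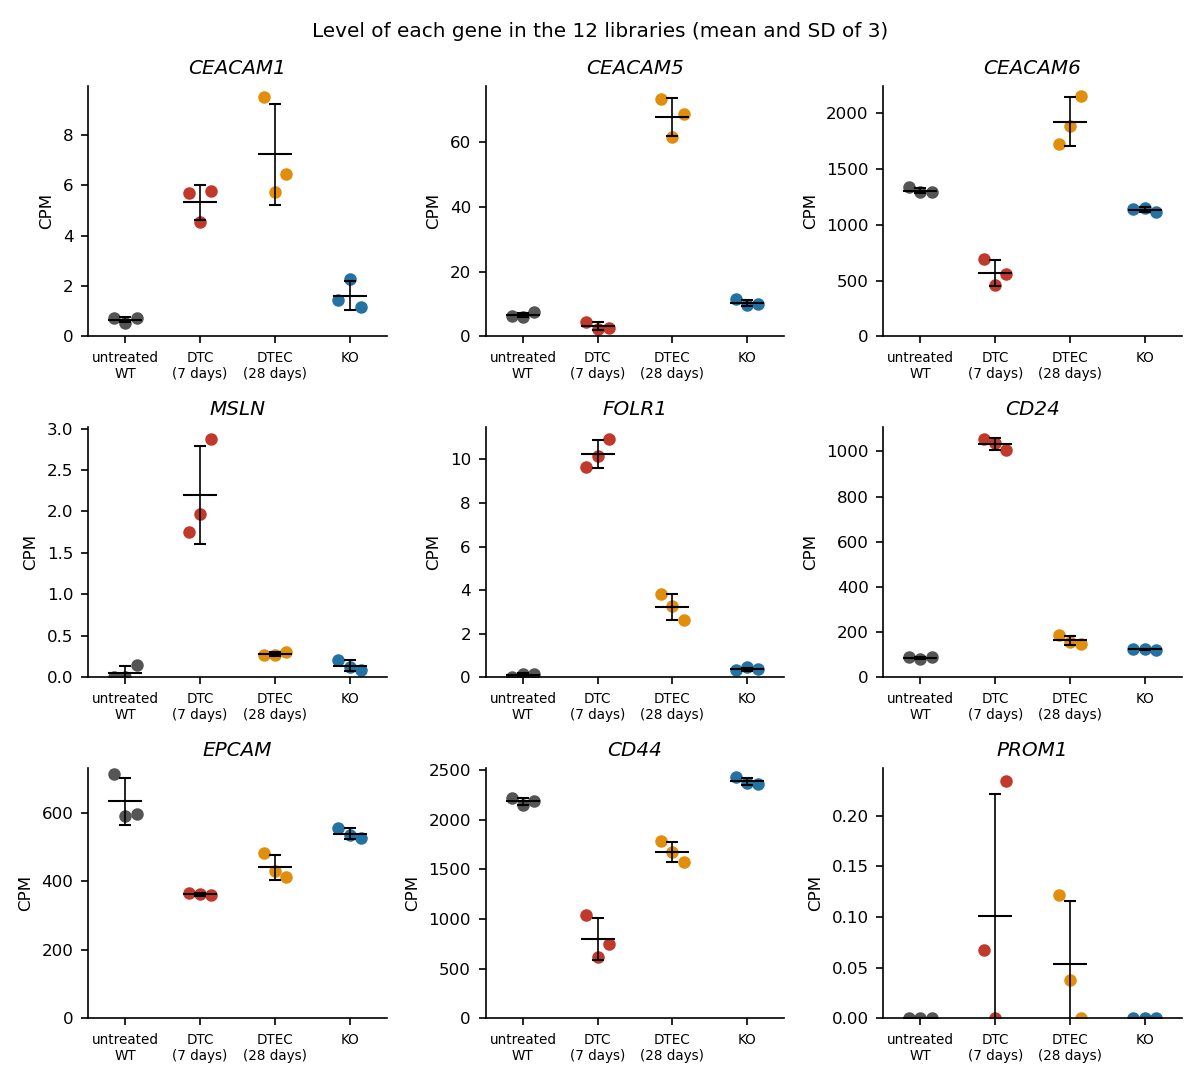
Level of each of the 9 genes in every library, in CPM on a linear axis that starts at 0. Points are single libraries, horizontal bars are means and error bars are SD (n = 3). FOLR1, MSLN and CD24 peak in DTC, CEACAM5 and CEACAM6 peak in DTEC, and EPCAM and CD44 are lowest in DTC. The PROM1 axis ends below 0.3 CPM and shows 10 counts in all of DTC and 5 in all of DTEC.

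All fold changes depend on how libraries are scaled. TMM scaling placed the median of all genes at 0.0551 on the log2 scale in DTC and 0.0179 in DTEC against untreated WT. Scaling by total counts alone moved these medians by 0.355 and 0.168, and raised the higher share of all calls from 50.5% to 68.4% and from 49.7% to 63.7%. For DTEC against DTC the median moved by -0.187 and the share from 51.9% to 37.4%, and in KO the share moved from 64.1% to 78.8%. No gene of the 8 changed direction under that scaling or any other alternative tried. In bulk RNA, fewer cells with a transcript and less of it per cell cannot be told apart.

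**Figure D2:**
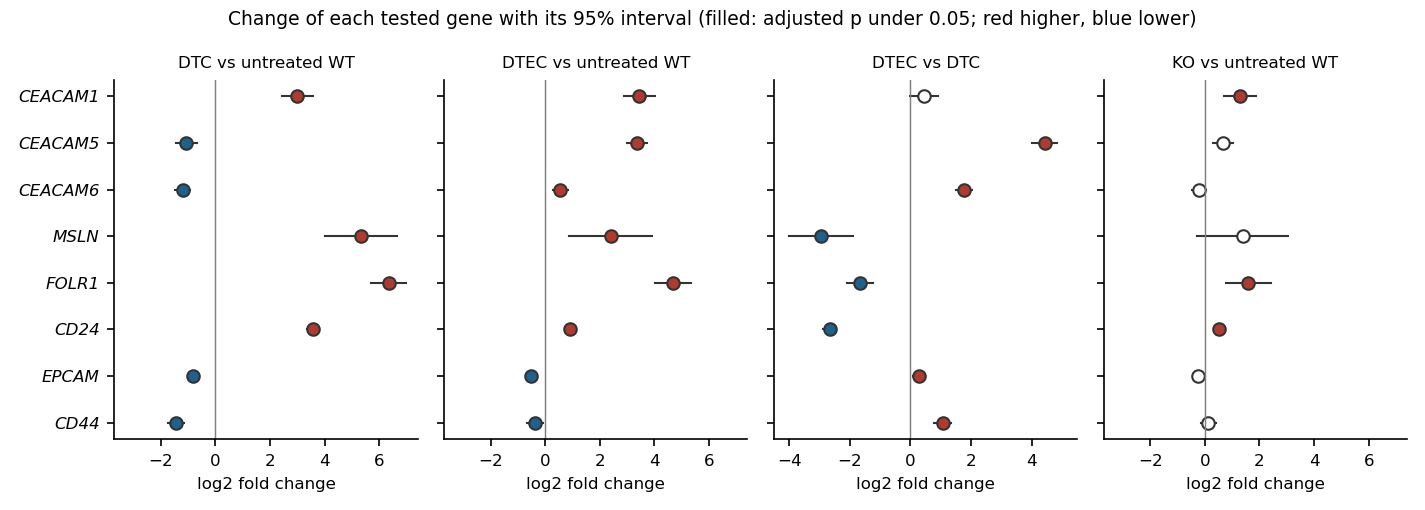
Log2 fold change of the 8 tested genes in the 4 comparisons, with the 95% interval of each, from the SE. Filled red points are called higher and filled blue points called lower at an adjusted p under 0.05, and open points are not called. The horizontal range of the third panel differs from that of the others. The widest intervals belong to MSLN, which has 0 to 5 counts in the untreated WT libraries.

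CEACAM5 (ENSG00000105388, chromosome 19, 41708585 to 41729798, plus strand, GENCODE 29 on GRCh38) was lower after 7 days in drug and higher after 28. Its level was 6.27, 6.07 and 7.36 CPM in the untreated WT libraries, 4.56, 2.30 and 2.64 in DTC, and 73.2, 61.4 and 68.5 in DTEC. Every DTC library lay below every untreated WT library, and every DTEC library lay above all 6. The mean was 6.57 ± 0.690 CPM (SD, n = 3) in untreated WT, 3.17 ± 1.22 in DTC and 67.7 ± 5.95 in DTEC. DTC was lower, with a log2 fold change of -1.06 (SE 0.200, adjusted p 2.99e-04). DTEC was 10.3-fold higher than untreated WT (3.36, SE 0.192, adjusted p 1.31e-08) and 21.4-fold higher than DTC (4.43, SE 0.205, adjusted p 1.04e-09). The rise from DTC to DTEC ranked 31 among the rises of 17115 genes.

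In KO CEACAM5 was at 11.4, 9.65 and 9.93 CPM, above all 3 untreated WT libraries, with a log2 fold change of 0.65 (SE 0.186, 95% interval 0.285 to 1.01). It was not called (adjusted p 0.0679), although it was called in 7 of 19 alternatives, among them DESeq2 (adjusted p 0.0182), the replicate block (0.0303) and the fit of the 2 compared groups alone (0.00193). Over all 19 the adjusted p ran from 7.59e-04 to 0.229. In the longest coding transcript of CEACAM5, 17.02% of the 101-base windows are shared with an overlapping annotated gene, ENSG00000267881, which had 0 counts in all 12 libraries. All 12 deposited CEACAM5 values were whole numbers.

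CEACAM6 (ENSG00000086548, chromosome 19, 41750977 to 41772208, plus strand) lies 21178 bases beyond CEACAM5 and ranked 72 of 17115 genes by CPM in untreated WT and 31 in DTEC. Its level was 1335, 1290 and 1294 CPM in untreated WT, 690, 456 and 559 in DTC, and 1727, 1888 and 2159 in DTEC. As for CEACAM5, all DTC libraries were below and all DTEC libraries above the untreated WT range. The mean fell from 1307 ± 24.7 CPM to 568 ± 117 in DTC (log2 fold change -1.20, SE 0.134, adjusted p 2.0e-06) and stood at 1924 ± 218 in DTEC (0.56, SE 0.132, adjusted p 0.00269). DTEC was 3.39-fold above DTC (1.76, SE 0.136, adjusted p 1.31e-07). In KO it was at 1142, 1154 and 1113 CPM, below the untreated WT libraries but not called (-0.20, 95% interval -0.46 to 0.0574, adjusted p 0.484). With the 2 compared groups alone in the fit, that difference was -0.18 with an adjusted p of 0.0205.

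The 2 neighbours shared direction but not size at 28 days. Per kilobase of exon, untreated WT had 220 ± 23.3 times (SD, n = 3) as much CEACAM6 as CEACAM5, DTC 205 ± 35.0 times, DTEC 31.4 ± 4.80 times and KO 122 ± 10.6 times. The ratio of CEACAM5 to CEACAM6 was higher in DTEC than in DTC, untreated WT or KO in every library, and the DTEC and KO differences from untreated WT had an exact two-sided permutation p of 0.1, the lowest value possible for 3 libraries against 3 (0.109 adjusted over 12 such tests). Between DTC and untreated WT the ratio libraries overlapped (exact permutation p 0.5).

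CEACAM1 (ENSG00000079385, chromosome 19, 42507304 to 42561234, minus strand) lies 735.095 kb beyond CEACAM6 and followed another course. Its level was 0.717, 0.540 and 0.721 CPM in untreated WT, 5.68, 4.53 and 5.78 in DTC, and 9.5, 5.73 and 6.46 in DTEC. It was thus already high at 7 days, when its 2 relatives were low, and the DTC and DTEC libraries overlapped. The rise over untreated WT was 3.00 on the log2 scale at 7 days (SE 0.284, adjusted p 3.88e-07) and 3.44 at 28 days (SE 0.285, adjusted p 3.09e-07), with 0.44 between them (95% interval -0.0245 to 0.909, adjusted p 0.130). In KO the libraries were at 1.44, 2.27 and 1.16 CPM, all above untreated WT, and the gene was called (1.28, SE 0.297, adjusted p 0.0248). That call was lost with limma-voom (adjusted p 0.141) and without untreated WT replicate 1 (0.0805), 2 (0.0932) or 3 (0.0727) or KO replicate 2 (0.133). Of the 12 deposited CEACAM1 values 8 were whole numbers, and 0.5% of its read-length windows are shared with CEACAM3.

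**Figure D3:**
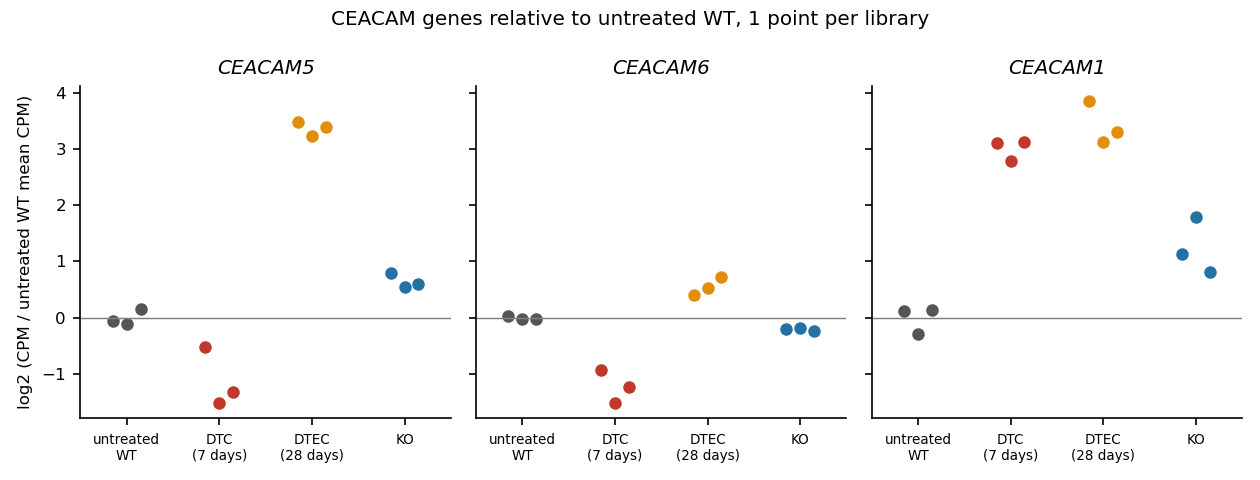
Log2 ratio of each library's CPM to the untreated WT mean for CEACAM5, CEACAM6 and CEACAM1, with 1 point per library and a line at 0. CEACAM5 and CEACAM6 are below 0 in all 3 DTC libraries and above 0 in all 3 DTEC libraries, while CEACAM1 is above 0 in all DTC, DTEC and KO libraries.

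Most of the rest of the CEACAM family did not pass the filter on low counts. Of 9 other family genes, 2 passed the filter, CEACAM19 and CEACAM20. CEACAM19 had a mean of 8.04 ± 0.656 CPM in untreated WT, 30.7 ± 4.15 in DTC and 16.9 ± 1.42 in DTEC. Like CEACAM1 it rose in DTC (1.93, adjusted p 1.33e-08) and in DTEC (1.07, adjusted p 1.03e-05), but unlike it the level in DTEC was called lower than in DTC (-0.86, adjusted p 5.32e-05). CEACAM20 stayed under 1 CPM, at 0.498 ± 0.109 in DTC and 0.187 ± 0.0788 in DTEC, and was called in both against untreated WT, where 2 of 3 libraries had no count (adjusted p 3.24e-04 and 0.0113). Around CEACAM5 and CEACAM6, within 250 kb on either side, 6 other genes were tested. They went both ways in DTC, with RABAC1 and GRIK5 higher and RPS19 and ARHGEF1 lower. The RPS19 call (-0.53, adjusted p 0.0301) was lost in 7 of 19 alternatives, with adjusted p up to 0.448. Among them were total counts alone, the upper quartile and the fits without any 1 of the untreated WT libraries or DTC replicate 1. In DTEC GRIK5 was higher and ARHGEF1 lower, and none of the 6 was called in KO by edgeR, DESeq2 or limma-voom (0 at an unadjusted p under 0.05 in edgeR). Without the filter, edgeR called RABAC1 in KO (adjusted p 0.0257).

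FOLR1 (ENSG00000110195, chromosome 11, 72189558 to 72196323, plus strand) had the largest fitted rise of the 8 genes at both times. The untreated WT libraries held 1, 5 and 6 counts, the DTC libraries 285, 345 and 373, the DTEC libraries 125, 86 and 95, and the KO libraries 9, 14 and 13. In CPM these were 0.030, 0.169 and 0.173, then 9.63, 10.2 and 10.9, then 3.81, 3.29 and 2.61, and 0.316, 0.453 and 0.359. No group overlapped another. Summed over the libraries, the ratio of DTC to untreated WT was 83.7 (95% interval 47.7 to 163) and that of DTEC was 26.1 (14.7 to 51.1), intervals that cover counting error only. The fitted log2 fold changes were 6.34 in DTC (SE 0.326, adjusted p 1.07e-09) and 4.67 in DTEC (SE 0.336, adjusted p 9.12e-08), and DTEC was lower than DTC by -1.66 (SE 0.224, adjusted p 2.52e-05). In KO the ratio was 3.07 (1.56 to 6.48) and the call was marginal (log2 fold change 1.59, SE 0.424, adjusted p 0.0499). It was lost in 12 of 19 alternatives, with adjusted p from 0.0143 to 0.223.

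Other genes of folate uptake and use did not follow FOLR1. The list of 14 had 12 tested members, of which 3 were called higher and 9 lower in DTC, with a median log2 fold change of -0.55 against 0.0551 over all genes. SLC19A1, the reduced folate carrier, fell from 67.2 ± 10.0 CPM to 11.2 ± 1.84 in DTC (-2.59, adjusted p 1.65e-08) and to 23.1 ± 5.63 in DTEC (-1.54, adjusted p 4.81e-06). SLC46A1, the proton-coupled carrier, fell by 0.44 in DTC (adjusted p 0.00282), a call that total counts and the upper quartile removed. In DTEC 3 of the 12 were higher, 6 lower and 3 not called, and between the 2 times SHMT2 and SHMT1, the serine hydroxymethyltransferases, were higher in DTEC by 1.28 and 1.15 (adjusted p 1.31e-07 and 1.69e-06). In KO edgeR and limma-voom called none of the 12 (1 at an unadjusted edgeR p under 0.05) and DESeq2 called 1. With total counts alone, 3 were higher and 6 lower in DTC. Shares over all tested genes in the main fit were 34.0% higher and 33.3% lower in DTC, and 26.0% and 26.3% in DTEC. The paralog FOLR3 had no count in untreated WT or DTEC and 0.638 ± 0.143 CPM in DTC.

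MSLN (ENSG00000102854, chromosome 16, 760762 to 768865, plus strand) had the same order of groups as FOLR1 at a lower level. It had 0, 0 and 5 counts in untreated WT, 52, 67 and 98 in DTC, 9, 7 and 11 in DTEC, and 6, 4 and 3 in KO. The DTC libraries, at 1.76, 1.97 and 2.87 CPM, were far above all others. DTEC was at 0.274, 0.267 and 0.302 CPM, above the 0, 0 and 0.144 of untreated WT. The summed ratio to untreated WT was 43.5 in DTC (18.3 to 135) and 5.54 in DTEC (2.10 to 18.4). MSLN was called in DTC (log2 fold change 5.34, SE 0.670, adjusted p 6.64e-06), and DTEC was lower than DTC (-2.95, SE 0.534, adjusted p 3.34e-04). The DTEC call (2.39, SE 0.770, adjusted p 0.0176) was lost without untreated WT replicate 1 (0.0577) or replicate 2 (0.0562). Without untreated WT replicate 3 no count was left in that group, and the fitted changes, up to 9.15 in DTC, then depend on the prior count. In KO the gene was not called (1.38, 95% interval -0.291 to 3.05, adjusted p 0.453).

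MUC16 (CA125), the mucin that binds mesothelin, rose at both times, from 3.23 ± 0.496 CPM to 37.8 ± 11.9 in DTC (3.54, adjusted p 4.71e-09) and 59.8 ± 7.52 in DTEC (4.21, adjusted p 5.43e-09). Its level was called higher in DTEC than in DTC (0.66, adjusted p 0.00634), where mesothelin was lower. In KO it was at 4.21 ± 0.406 CPM and not called (0.38, adjusted p 0.411).

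CD24 (ENSG00000272398, chromosome 6, 106969831 to 106975627, minus strand) had the smallest error of the rising genes. It was at 90.8, 81.4 and 88.9 CPM in untreated WT, 1057, 1037 and 1004 in DTC, 186, 157 and 147 in DTEC, and 127, 125 and 121 in KO. No 2 groups overlapped, and the order was DTC, DTEC, KO and untreated WT. The mean rose 11.9-fold from 87.0 ± 4.99 to 1033 ± 26.4 CPM in DTC (log2 fold change 3.57, SE 0.110, adjusted p 2.16e-11), which moved it from rank 2904 to rank 58 of 17115 genes by CPM. It was at 163 ± 20.1 CPM in DTEC (0.91 against untreated WT, SE 0.101, adjusted p 4.86e-06), or 15.8% of the DTC mean (-2.66, SE 0.105, adjusted p 2.58e-10). In KO it was at 124 ± 3.04 CPM (0.52, SE 0.10, adjusted p 0.00944), and this was the KO call among the 8 genes that held in all 19 alternatives, with adjusted p from 4.09e-06 to 0.0469. Only 5 of the 12 deposited CD24 values were whole numbers. Of its read-length windows 0.62% are shared with the pseudogene CD24P4, whose mean was at most 0.0392 CPM.

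The lectin and glycan genes of the list that serve CEACAMs, CD24 and mesothelin gave 4 higher, 1 lower and 4 not called of 9 tested in DTC, and 3, 3 and 3 in DTEC, or 5 higher and 1 lower in DTC with total counts alone. Beside this, 34.0% of all tested genes were higher and 33.3% lower in DTC, and 26.0% and 26.3% in DTEC. SIGLEC10, the receptor of CD24 on immune cells, was not tested and had a mean of at most 0.0701 CPM. LGALS9, galectin-9, rose from 0.772 ± 0.233 CPM to 5.10 ± 0.655 in DTC (2.72, adjusted p 4.48e-07) and to 1.98 ± 0.265 in DTEC (1.37, adjusted p 6.17e-04). ST3GAL1, a sialyltransferase, was higher in DTEC than in DTC by 0.98 (adjusted p 2.5e-05). In KO 2 of the 9 were called lower, FUT4 and ST3GAL6, and both calls were lost in 9 or more of 19 alternatives.

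Machinery that attaches GPI anchors showed no common direction beside these anchored antigens. Of 29 tested genes, 8 were higher, 8 lower and 13 not called in DTC, with a median of 0.10 on the log2 scale against 0.0551 over all genes. In DTEC 11 were higher and 5 lower (median -0.0122), and in KO 3 were higher and 26 not called. The DTC balance rested on the scaling, since with total counts alone 18 were higher and 5 lower. The DTEC total of 16 was 10 without untreated WT replicate 2. For comparison, 34.0% of all tested genes were higher and 33.3% lower in DTC, and 26.0% and 26.3% in DTEC. The KO calls were fragile, with 0 of 29 under limma-voom (5 at an unadjusted p under 0.05) and 0 or 1 without any 1 of the untreated WT or KO libraries. PIGZ, a mannosyltransferase of the anchor, rose from 0.965 ± 0.148 CPM to 5.88 ± 0.693 in DTC (2.60, adjusted p 1.49e-06) and 2.33 ± 0.552 in DTEC (1.27, adjusted p 0.00187). MPPE1, which removes a side chain from the anchor, rose by 1.73 and 1.16 (adjusted p 5.89e-09 and 8.74e-07). PIGA, needed for the first step, was at 14.2 ± 1.06, 28.7 ± 0.628 and 13.9 ± 1.38 CPM in untreated WT, DTC and DTEC, so that it was called lower in DTEC than in DTC (-1.05, adjusted p 2.82e-06).

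EPCAM (ENSG00000119888, chromosome 2, 47345158 to 47387601, plus strand) fell at both times by less than 2-fold. It was at 714, 590 and 598 CPM in untreated WT, 367, 362 and 359 in DTC, 482, 430 and 412 in DTEC, and 556, 537 and 526 in KO. No 2 groups overlapped, and untreated WT replicate 1 stood above the rest of its group. The mean of 634 ± 69.3 CPM fell to 57.2% in DTC, at 363 ± 3.85 (log2 fold change -0.81, SE 0.10, adjusted p 6.07e-06), and to 69.6% in DTEC, at 441 ± 36.2 (-0.52, SE 0.0998, adjusted p 5.45e-04). The difference between DTEC and DTC (0.28, SE 0.0996, adjusted p 0.0264) was lost in 11 of 19 alternatives, among them total counts alone (0.10, adjusted p 0.420) and the fit of those 2 groups alone (adjusted p 0.146). In KO EPCAM was not called (-0.23, 95% interval -0.428 to -0.0377, adjusted p 0.249). The summed level of the 7 epithelial markers, EPCAM among them, ran from 9258 to 9710 CPM over the untreated WT libraries. The DTC libraries were at 4914 to 5558, the DTEC libraries at 8009 to 10369 and the KO libraries at 9925 to 10675. The sum was carried by the keratins, with KRT18 lower in DTC by -1.31 (adjusted p 1.78e-07). Of the 7 markers 1 was higher, 4 lower and 2 not called in DTC, and 1, 1 and 5 in DTEC. Among all tested genes 34.0% were higher and 33.3% lower in DTC, and 26.0% and 26.3% in DTEC. The part of these markers in the EPCAM result was not tested.

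Of the 13 partners and processing enzymes of EPCAM, 6 were higher, 4 lower and 3 not called in DTC, and 6, 2 and 5 in DTEC. With total counts alone 8 were higher and 3 lower in DTC. Over all tested genes the main fit called 34.0% higher and 33.3% lower in DTC, and 26.0% and 26.3% in DTEC. CLDN7, the claudin that forms complexes with EPCAM, had means of 278 to 341 CPM and was called by edgeR in none of the 4 comparisons, but its DTC difference (0.25, adjusted p 0.0976) was called in 4 of 19 alternatives. These were total counts alone (0.61), the upper quartile, DESeq2 (adjusted p 0.0368) and the fit without DTC replicate 1 (1.36e-04). Its difference between DTEC and DTC (-0.21, adjusted p 0.188) was called in the same alternatives except DESeq2. The tetraspanin CD82 rose from 6.53 ± 0.590 CPM to 32.5 ± 5.54 in DTC (2.31, adjusted p 4.43e-09) and 21.5 ± 1.56 in DTEC (1.72, adjusted p 2.37e-07), and SPINT1, an inhibitor of matriptase, rose by 0.95 in DTEC (adjusted p 6.57e-06). Among the enzymes that can cleave EPCAM, ADAM17 was lower in DTC (-0.71, adjusted p 8.56e-05) and the gamma-secretase subunit PSEN2 was lower in DTC (-1.56, adjusted p 5.66e-09) and DTEC (-0.90, adjusted p 2.91e-06). BACE2 was higher in DTEC than in DTC (0.71, adjusted p 2.33e-04).

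CD44 (ENSG00000026508, chromosome 11, 35138870 to 35232402, plus strand) was the most abundant of the 9 genes by CPM in untreated WT, ranking 34 of 17115. It was at 2217, 2153 and 2187 CPM in untreated WT, 1037, 619 and 746 in DTC, 1782, 1672 and 1577 in DTEC, and 2430, 2366 and 2365 in KO. The 3 DTC libraries were lowest and also spread most, with an SD of 26.8% of the mean against 1.46% in untreated WT. DTC was at 36.6% of the untreated WT mean (log2 fold change -1.45, SE 0.148, adjusted p 8.1e-07), and DTEC was 2.09-fold above DTC (1.07, SE 0.146, adjusted p 3.01e-05). DTEC stayed below untreated WT in all 3 libraries, but the call (-0.38, SE 0.145, adjusted p 0.0387) was lost in 12 of 19 alternatives, among them total counts alone (adjusted p 0.230) and the upper quartile (0.116). In KO CD44 was above untreated WT in all 3 libraries by 0.13 (95% interval -0.156 to 0.411), and was not called (adjusted p 0.718; 0.0378 with the 2 groups alone in the fit).

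CD24 and CD44 are often read together, since a CD44-high and CD24-low surface is a common definition of stem-like carcinoma cells. Per kilobase of exon untreated WT had a ratio of CD24 to CD44 of 0.129 ± 0.00565 (SD, n = 3), DTC of 4.35 ± 1.06, DTEC of 0.313 ± 0.0201 and KO of 0.168 ± 0.00291. DTC was thus the group in which CD24 exceeded CD44, in all 3 libraries (3.29, 5.41 and 4.35). Each of the 4 comparisons of this ratio separated the libraries fully, with an exact two-sided permutation p of 0.1, the smallest possible (0.109 adjusted over 12 tests). Surface protein and single cells were not measured, so the ratio does not say how many cells had either phenotype.

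The ligands and handling of hyaluronan changed in both directions around CD44. Of 16 tested genes, 5 were higher, 7 lower and 4 not called in DTC, and 4, 7 and 5 in DTEC. The larger number of lower calls rested on the scaling, since with total counts alone 6 were higher and 5 lower in DTC and 4 higher and 3 lower in DTEC. The DTEC count of 11 calls was also 6 or 7 without any 1 of the untreated WT libraries, DTEC replicate 2 or KO replicate 2. All tested genes gave 34.0% higher and 33.3% lower in DTC, and 26.0% and 26.3% in DTEC, in the main fit. HAS3, a hyaluronan synthase, fell from 90.0 ± 5.72 CPM to 10.4 ± 1.35 in DTC (-3.11, adjusted p 2.35e-10) and 21.2 ± 3.2 in DTEC (-2.09, adjusted p 2.22e-08). SPP1 (osteopontin), another ligand, rose from 91.2 ± 7.2 CPM to 541 ± 132 in DTC (2.57, adjusted p 6.05e-09) and 322 ± 30.8 in DTEC (1.82, adjusted p 4.17e-07). MMP14, a membrane protease that cuts CD44, rose from 1.60 ± 0.679 CPM to 36.8 ± 1.79 in DTC, 6.82 ± 0.330 in DTEC and 8.17 ± 0.436 in KO, with log2 fold changes of 4.53, 2.10 and 2.36 (adjusted p 6.45e-10, 2.53e-06 and 2.27e-05). ESRP1, which keeps the epithelial splice forms of CD44, was lower in DTC (-0.70, adjusted p 3.07e-04) and higher in DTEC (0.69, adjusted p 5.4e-04). The table gives gene totals, so CD44 splice forms are not analysed here. EZR (ezrin), which links CD44 to actin, was lower in DTC (-1.18, adjusted p 8.26e-07). SRGN (serglycin) was lower in DTEC than in DTC by -1.92 (adjusted p 3.92e-06).

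PROM1 (ENSG00000007062, chromosome 4, 15963076 to 16084378, minus strand) was at or near the counting limit everywhere. Untreated WT and KO libraries all had 0 counts, the DTC libraries 2, 0 and 8, and the DTEC libraries 4, 1 and 0. A count of 0 allows up to 3 counts, or 0.0824 to 0.115 CPM in these libraries, and only DTC replicate 3 and DTEC replicate 1 were above their limit. It did not pass the filter. Without a filter edgeR gave an adjusted p of 0.0436 for DTC and 0.157 for DTEC, over 31466 genes, on a total of 10 and 5 counts. Its paralog PROM2 was abundant, at 262 ± 22.4 CPM in untreated WT, and moved like CEACAM6, lower in DTC (128 ± 5.09 CPM, -1.03, adjusted p 8.37e-06) and higher in DTEC (402 ± 84.9, 0.62, adjusted p 0.00126).

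Other stem-like and progenitor markers went both ways in DTC and were more often called lower than higher in DTEC. Of the 20 listed, 13 passed the filter, and ALDH1A1, NANOG, LGR5, THY1, CXCR4, KIT and NGFR did not. In DTC 5 were higher, 4 lower and 4 not called (median -0.0595) and in DTEC 3, 7 and 3 (median -0.49), against medians of 0.0551 and 0.0179 over all genes. With total counts alone 6 were higher and 3 lower in DTC, and 4 were higher and 6 lower in DTEC. The main fit called 34.0% of all tested genes higher and 33.3% lower in DTC, and 26.0% and 26.3% in DTEC. In KO edgeR, DESeq2 and limma-voom called none of the 13 (4 at an unadjusted edgeR p under 0.05). ITGA6, the laminin receptor subunit alpha 6, fell from 1255 ± 75.9 CPM to 129 ± 49.5 in DTC (-3.28, adjusted p 1.57e-08) and 607 ± 85.5 in DTEC (-1.05, adjusted p 5.76e-04). TP63, a factor of basal cells, rose from 0.578 ± 0.124 CPM to 4.50 ± 1.21 in DTC (2.94, adjusted p 5.18e-07), and LGR6 rose from 0.158 ± 0.109 to 2.19 ± 0.787 in DTEC (3.73, adjusted p 1.13e-05).

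The wider list of surface antigens of epithelial tumours held both directions at 7 days. Of 21 tested genes, 11 were higher and 10 lower in DTC (median 0.86 against 0.0551 over all genes), and 12 were higher, 4 lower and 5 not called in DTEC (median 0.50 against 0.0179). With total counts alone 11 were higher and 4 lower in DTC. Main-fit shares over all tested genes were 34.0% higher and 33.3% lower in DTC, and 26.0% and 26.3% in DTEC. L1CAM, a neural adhesion molecule, rose from 4.0 ± 0.806 CPM to 77.0 ± 10.7 in DTC (4.27, adjusted p 4.01e-08), and the glycoprotein GPNMB from 1.90 ± 0.172 to 23.8 ± 0.887 (3.64, adjusted p 3.61e-08). MUC1 rose from 2.25 ± 0.153 CPM to 27.5 ± 3.87 in DTC (3.61, adjusted p 7.11e-11) and 37.7 ± 0.393 in DTEC (4.06, adjusted p 1.02e-10). In KO MUC1 was at 7.70 ± 0.531 CPM (1.77, adjusted p 4.5e-06), 1 of 3 higher and 2 lower calls in that list. That KO total of 5 was 11 in the fit of the 2 groups alone and 1 to 3 without any 1 of the untreated WT or KO libraries. NT5E, the ectonucleotidase CD73, was lower in KO (-0.61, adjusted p 0.0455), a call lost in 9 of 19 alternatives. Tissue factor (F3) and the complement regulator CD55 were lower in DTEC than in DTC, by -1.52 and -1.39 (adjusted p 6.1e-08 and 2.41e-05).

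**Figure D4:**
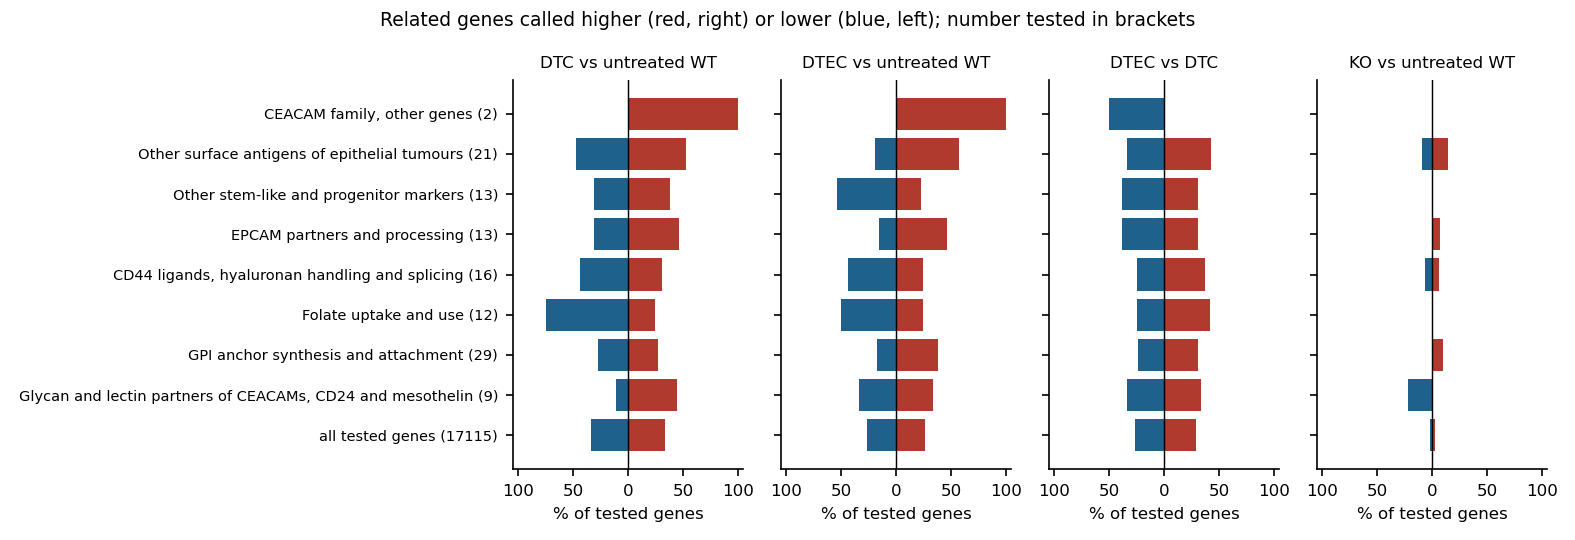
Share of the tested genes of each related list that were called higher (red, right of 0) or lower (blue, left of 0) in each comparison, with the number tested in brackets and all 17115 genes as the last bar. In DTC 9 of 12 folate genes are lower (6 with total counts alone) and 3 higher. The other lists with more than 2 genes also hold both directions there. In KO the calls run from 0 of 12 folate genes to 5 of 21 other surface antigens (1 to 11 over the alternatives), against 4.31% of all genes.

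Levels of different genes were compared per kilobase of exon (CPM divided by the exon length in GENCODE 29). In untreated WT the order was CEACAM6 at 428 ± 8.10, EPCAM at 252 ± 27.5, CD44 at 218 ± 3.19 and CD24 at 28.1 ± 1.61, with CEACAM5 at 1.96 ± 0.206 and the other 4 genes under 1. In DTC CD24 was first at 333 ± 8.52, followed by CEACAM6 at 186 ± 38.4, EPCAM at 144 ± 1.53, CD44 at 80.1 ± 21.4 and FOLR1 at 6.21 ± 0.398. CEACAM1 (0.965 ± 0.125), CEACAM5 (0.945 ± 0.365) and MSLN (0.860 ± 0.231) came next in DTC and did not differ beyond their spread. In DTEC CEACAM6 was first again at 631 ± 71.5, EPCAM (175 ± 14.4) and CD44 (168 ± 10.2) did not differ beyond their spread, and CEACAM5, at 20.2 ± 1.77, stood above FOLR1 (1.96 ± 0.364) and CEACAM1 (1.31 ± 0.362). In KO the order was CEACAM6 at 372 ± 6.94, CD44 at 239 ± 3.73, EPCAM at 214 ± 6.15 and CD24 at 40.2 ± 0.983. With the length of the longest coding transcript instead, EPCAM and CD44 changed places in untreated WT and DTEC and EPCAM passed CEACAM6 in DTC by less than the spread, while CD24 remained first in DTC and CEACAM6 first in the other groups.

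**Figure D5:**
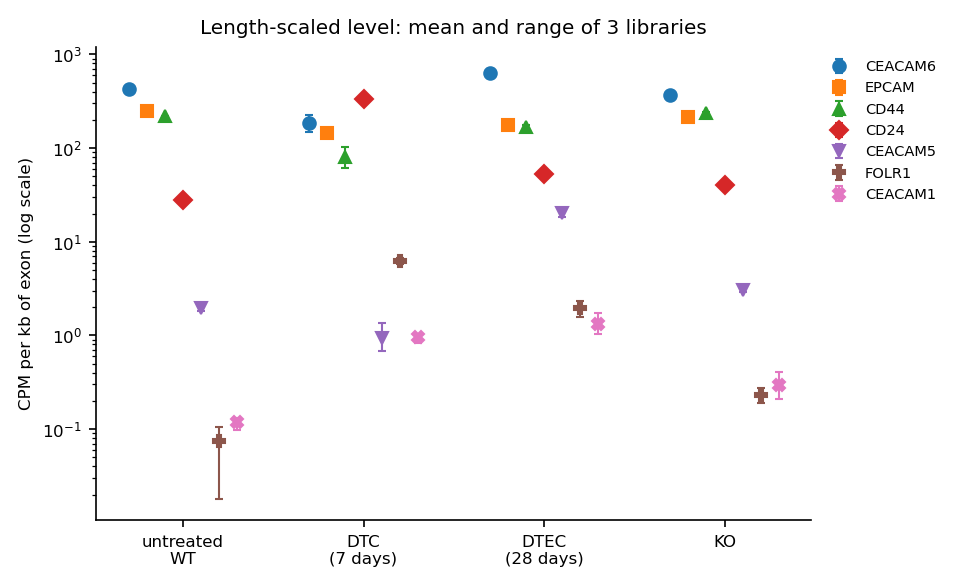
Length-scaled level of the 7 genes with more than a few counts, in CPM per kilobase of exon on a log axis. Symbols are means of 3 libraries and bars run from the lowest to the highest library. CD24 is the fourth gene in untreated WT, DTEC and KO and the first in DTC, and CEACAM5, at 20.2 in DTEC, is above FOLR1 at 1.96 and CEACAM1 at 1.31.

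Across the 12 libraries, the log2 CPM of FOLR1 had a Pearson r of -0.97 with EPCAM, 0.91 with MSLN and 0.87 with CD24. CEACAM5 and CEACAM6 had r 0.87, and CD24 and CD44 had r -0.94. CEACAM1 had r 0.90 with FOLR1 and only 0.38 and -0.09 with CEACAM5 and CEACAM6. These values describe 4 groups of 3 libraries, which share their scaling. Among genes with at least 10 CPM on average, the 3 genes whose pattern was most like each member were SCPEP1, DNASE2 and ADD3 for CEACAM1 (r 0.982, 0.980 and 0.980), ERMP1, DTX4 and UBXN10 for CEACAM5 (0.993, 0.991 and 0.990), and ZNF395, PHLPP1 and WDR59 for CEACAM6 (0.992, 0.992 and 0.990). For MSLN they were OLR1, VTN and TAPBP (0.971, 0.970 and 0.970), for FOLR1 TAPBPL, CLSTN3 and CACNB3 (0.992, 0.992 and 0.990), and for CD24 SLC31A2, CCN1 and GSTM4 (0.994, 0.993 and 0.992). For EPCAM they were SMU1, NUDCD1 and BZW1 (0.989, 0.989 and 0.986), and for CD44 HIP1, PLAGL2 and UBASH3B (0.995, 0.994 and 0.994).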

How the data were processed

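Polyadenylated RNA of 12 PC9 libraries was sequenced from TruSeq Stranded mRNA libraries as 101 bp pairs, per the labels' protocols. The authors deposited 1 table of values per Ensembl gene that are estimated counts (an expected count need not be whole), not scaled to depth. The submitters' processing notes name RSEM 1.3.1, Bowtie2 2.5.2, DESeq2 1.40.2 and GRCh38. The annotation release and whether strand was used in counting are not given in the sources used here. Every column matched a sample. Symbols were found for 62700 of 62754 identifiers, and 58261 were in GENCODE 29, from which coordinates and exon lengths were taken.

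Counts were rounded to whole numbers, then fitted with edgeR 4.0.16 (R 4.3.3), using filterByExpr by group, TMM scaling, 1 fit of all 12 libraries with 1 mean per group, robust quasi-likelihood F tests and Benjamini-Hochberg adjustment over 17115 genes. The scripts were tested on simulated data. CPM uses TMM totals. The SE of a log2 fold change is its size over the square root of F, and 95% intervals come from it by the normal approximation. Ratios of summed counts have exact binomial intervals, which, like the limit of 3 counts, cover counting error only, since reads carried no molecular identifiers. Alternatives were other scalings, DESeq2 1.42.0, limma-voom (limma 3.58.1), no filter, the 2 compared groups alone, the replicate number as a block, stricter thresholds and each library left out.

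The 9 genes, the 8 related lists and the tests were chosen with earlier results of these data known. All members were named. From each list the 2 called genes with the largest absolute change and a mean of at least 1 CPM were named per comparison, plus direct ligands, partners and paralogs of members, and for each member the 3 genes with the highest Pearson r of log2 CPM (prior count 2). A few list genes near the limit of detection were also named, and some genes that the rule names are not reported here. Replicate numbers were not treated as pairs, since same-numbered deviations from the group means correlated at -0.0130 to 0.179 and in no comparison were all 3 above 0.1.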

Additional observations from a re-analysis of the deposited data

Results flagged for a closer look

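CEACAM5 and CEACAM6 differed between the 2 treatment times in direction as well as size. Against untreated WT, both were lower at 7 days (log2 fold changes -1.06 and -1.20) and higher at 28 days (3.36 and 0.56), and all 4 differences were called. A call in the direct edgeR test of DTEC against DTC was part of the rule for flagging genes, so it is not separate support. That test has no untreated WT library in its contrast, although its fit uses all 12 libraries. It gave 4.43 for CEACAM5 (adjusted p 1.04e-09) and 1.76 for CEACAM6 (adjusted p 1.31e-07). Both differences kept their call in all 19 alternatives, from 4.20 to 4.76 for CEACAM5 and from 1.57 to 1.91 for CEACAM6. Beside them, mitochondrial genes took 4.43% to 5.41% of counts in DTC and 1.82% to 2.38% in DTEC. The summed epithelial markers, a sum carried by the keratins, were at 4914 to 5558 CPM in DTC and 8009 to 10369 in DTEC. The part of the mitochondrial share and of these markers in the difference was not tested.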

How the results depend on the processing

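The 32 log2 fold changes of the 8 tested genes were recomputed under 18 or 19 alternatives each, 606 values in all. The direction was kept in all 606, and 554 stayed on the same side of the threshold, 42 lost a call and 10 gained one. For 23 of the 32 no alternative changed the call. The others were CEACAM1, CEACAM5, CEACAM6, MSLN, FOLR1 and CD44 in KO, MSLN and CD44 in DTEC, and EPCAM between DTEC and DTC. The cause was not tested.

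Counts of called genes among the 8 stayed within 1.5 times in DTC and between DTEC and DTC. A 2-fold threshold gave 4 of 8 in DTEC. In KO, where 3 were called, the fit of the 2 compared groups alone gave 5, limma-voom 1 and an adjusted p under 0.01 gave 1, and with 1 library left out the count ran from 1 (untreated WT replicate 1 or 2, or KO replicate 2 left out) to 4 (DTC replicate 1 left out). Over all genes the 2-fold threshold gave 6190 calls in DTC, 3406 in DTEC and 3833 between them, against 11520, 8955 and 9480. The KO count of 738 was 1148 with DESeq2, 1147 without a filter, 2656 with the 2 groups alone, 269 at an adjusted p under 0.01, 223 at 2-fold, and ran from 321 (untreated WT replicate 1 left out) to 1520 (DTC replicate 1 left out) over the 12 libraries left out in turn. With the replicate number as a block, the members called were 8, 8, 7 and 3 and all genes called 11775, 9255, 9732 and 887 in DTC, DTEC, DTEC against DTC, and KO. The block called CEACAM5 in KO (adjusted p 0.0303) and lost FOLR1 there (0.0638). In KO against untreated WT every library correlated best with its own number (0.0378 to 0.0629), which is a hint from the data, not the design. MSLN and FOLR1 in untreated WT rested on 0 to 6 counts per library, so the depth limits their folds.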

Other observations

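Transcripts named as divergent from EPCAM and CD44 did not follow those genes. EPCAM-DT was higher in DTC (log2 fold change 3.03, SE 0.611, edgeR adjusted p 5.29e-04) and in DTEC (3.21, adjusted p 5.1e-04), where EPCAM was lower. CD44-DT was higher in DTC (1.31, adjusted p 0.0196) and in DTEC (1.15, adjusted p 0.0483). Whether strand was used in counting is not given, so reads of these transcripts and of the genes they may overlap cannot be told apart. Both stayed at or below 1.15 CPM in every library, and they were looked at after their values had been seen.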
